A study of Mus musculus with 12 samples.

Results

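The expression of 10 genes of the heat shock response was followed in mouse dermis, the connective tissue under the epidermis, in a wounding experiment. They are Hspa1a, Hspa1b, Hspa2 and Hspa8 of the HSP70 family, the HSP110 gene Hsph1, the J-domain gene Dnajb1, the nucleotide exchange factor Bag3, the small heat shock protein genes Hspb1 and Hspb8, and the HSP90 gene Hsp90aa1. The list was given by mouse symbol, and all 10 were found among the 55401 genes of the deposited table. They were chosen by their FPKM in these 12 samples, so their own values are given as a description, with no p-value for any of them. Counts of these genes past a threshold are printed beside the share of all genes, and nothing is read from them. FPKM is a fragment count divided by transcript length in kilobases and scaled to the size of the library, so that levels can be compared between genes.

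Chaperones bind unfolded or partly folded proteins and keep them from aggregating. HSP70 proteins bind and release such clients in a cycle driven by ATP. J-domain proteins bring them clients and speed up the hydrolysis of ATP, while HSP110 proteins and BAG proteins exchange the nucleotide. HSP90 acts later, on clients that are nearly folded, and small heat shock proteins hold unfolded proteins without using ATP. Heat and other stress raise the transcription of many of these genes through heat shock factor 1, which binds repeats of the bases GAA and TTC called heat shock elements. In skin, Hspb1 is known as a protein of differentiating keratinocytes.

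The 12 samples were dermis of C57BL/6 mice aged 6 weeks, 3 biological replicates in each of 4 groups. Wild-type (WT) mice and mice with both copies of Cthrc1 disrupted (Cthrc1-/-) were sampled on day 0 and on day 7 of an experiment with paired wounds of equal size. Cthrc1 encodes a secreted protein with a collagen triple helix repeat. The labels do not say whether the dermis of day 0 had been wounded, how the dermis was separated, or which cells were lost in doing so.

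Total counts ran from 48329668 to 76938132 per sample. Cthrc1 had at least 1813 counts in each WT sample and at most 15 in each Cthrc1-/- sample. The 6 fibroblast markers summed to between 337 and 6441 FPKM. The 5 markers of basal keratinocytes, the dividing cells of the epidermis and hair follicle, summed to between 2190 and 8985 FPKM, so that the dermis held epidermal or follicle RNA in each sample. No marker of these lists was at 0. A pair of libraries stood apart from their replicates. WT day 7 replicate 1 had a neutrophil marker sum of 5045 FPKM, against 741 and 39.1 in replicates 2 and 3. Its basal keratinocyte sum was 2190 FPKM, against 4775 and 6617. Cthrc1-/- day 0 replicate 3 had a fibroblast sum of 337 FPKM, against 2386 and 1296 in replicates 1 and 2. Each of these sums lay below each WT day 0 fibroblast sum, which ran from 4814 to 6441 FPKM. All 6 fibroblast markers were lower in each Cthrc1-/- day 0 sample than in each WT day 0 sample, against 19.8% of all genes. In Cthrc1-/- day 0 replicate 3 the sum of 6 inner root sheath markers, genes of the growing hair follicle, was 11423 FPKM. Replicates 1 and 2 had 227 and 4703 FPKM. In WT on day 0 this sum was below that of all other samples, between 2.77 and 5.39 FPKM. On day 7 it was between 1663 and 3911 FPKM in WT and between 504 and 5223 in Cthrc1-/-. The part of these fibroblast and follicle differences in the levels of the heat shock genes was not tested. In bulk tissue, fewer cells of a type and less RNA per cell cannot be told apart.

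The mean was highest in WT on day 0 for 8 of the 10 genes, the exceptions being Hspb1 and Bag3 with their highest mean in Cthrc1-/- on day 0, and each gene had a lower mean on day 7 than on day 0 in both genotypes. Over all 12 samples the order of mean levels was Hspb1 at 400 FPKM, Hspa8 at 263, Hspa1b at 208, Hspa1a at 142, Hspb8 at 87.1, Hsp90aa1 at 67.4, Dnajb1 at 41.8, Bag3 at 30.5, Hspa2 at 19.2 and Hsph1 at 7.37 FPKM. Hspb1 stood among the top 0.866% of the 14313 genes tested by mean level, and Hsph1 at the top 42.2%. The WT day 0 samples were alike: the median coefficient of variation over the 10 genes was 5.52% there, against 22.5% in Cthrc1-/- on the same day, and on day 7 it was 19.7% in WT and 10.1% in Cthrc1-/-.

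**Figure D1:**
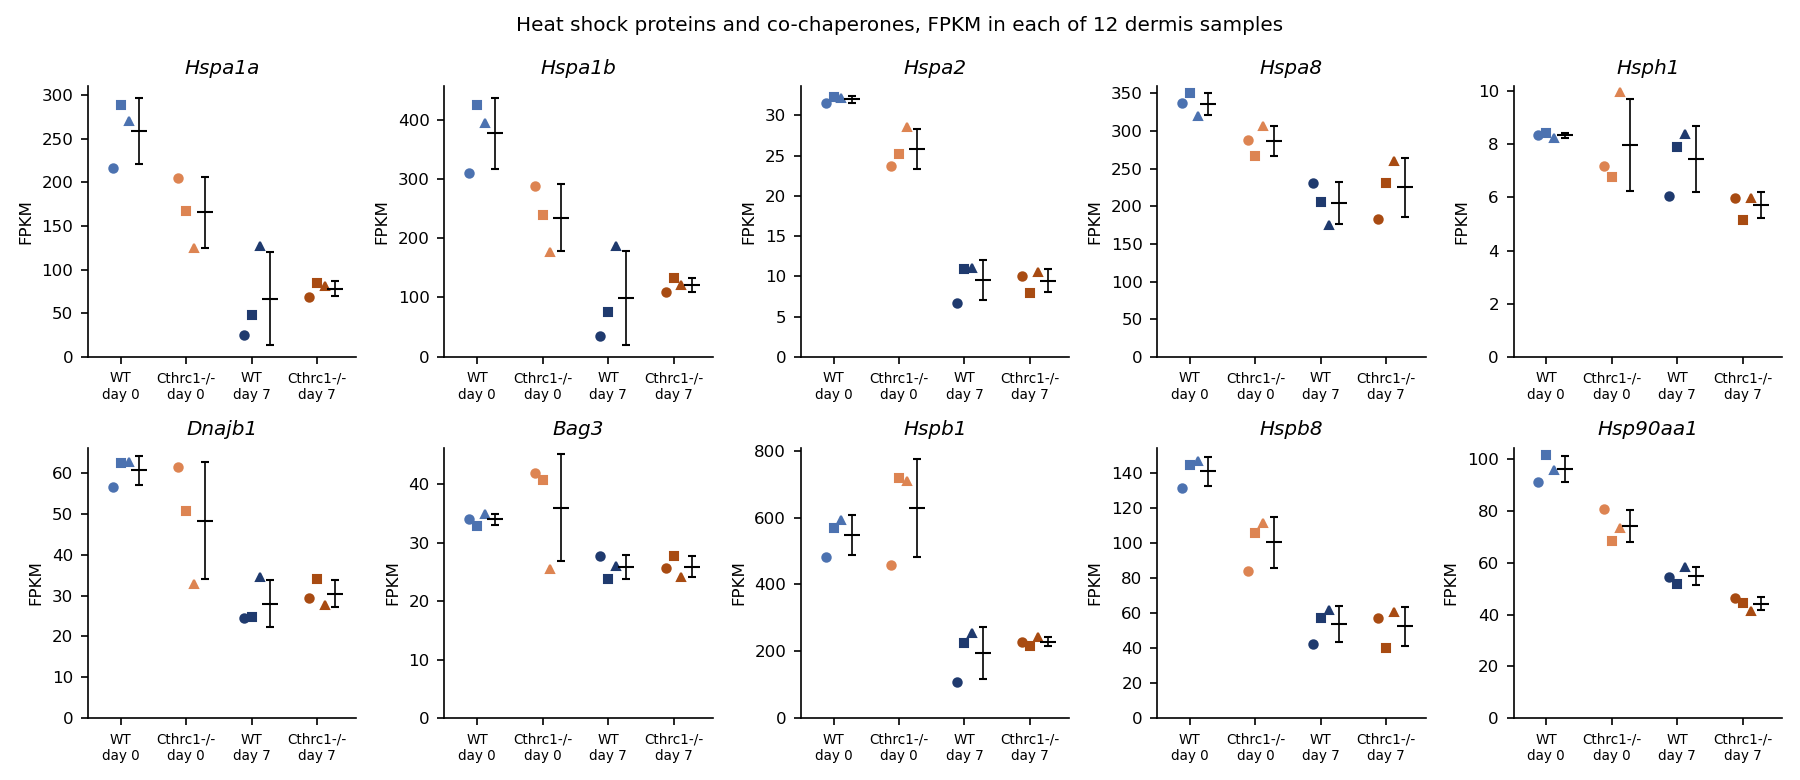
FPKM of each of the 10 genes (vertical axes, from 0) in WT and Cthrc1-/- dermis on day 0 and day 7. Circles, squares and triangles are replicates 1, 2 and 3, and the black bar is the mean ± SD (n = 3). The day 7 samples of Hspa2 lie between 6.70 and 11.0 FPKM and those of day 0 between 23.7 and 32.3, while those of Hsph1 overlap between days in WT.

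Hspa1a and Hspa1b encode the stress-inducible cytosolic HSP70. They are neighbours on the minus strand of chromosome 17, Hspa1a (ENSMUSG00000091971) at 34969190 to 34972156 and Hspa1b (ENSMUSG00000090877) at 34956436 to 34959238, on GRCm38 as are all positions here. Their promoters are shown because they are nearly identical and hold the same heat shock match. The levels of both genes moved together in each sample, but reads could have been split between them. The part of the promoters in these levels was not tested. The stretches are the 250 bases before the start in the RefSeq promoter table, build GRCm38.p6, minus strand, chr17:34972157-34972406 for Hspa1a and chr17:34959239-34959488 for Hspa1b, written 5′ to 3′. Capitals mark a match to GAANNTTC, a pair of inverted heat shock units, whose first base lies 104 bases before the start in both.
Hspa1a: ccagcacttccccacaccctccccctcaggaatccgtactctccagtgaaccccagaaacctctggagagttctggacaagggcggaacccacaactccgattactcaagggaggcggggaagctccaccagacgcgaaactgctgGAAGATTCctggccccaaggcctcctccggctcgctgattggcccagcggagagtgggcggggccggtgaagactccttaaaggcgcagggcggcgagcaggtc
Hspa1b: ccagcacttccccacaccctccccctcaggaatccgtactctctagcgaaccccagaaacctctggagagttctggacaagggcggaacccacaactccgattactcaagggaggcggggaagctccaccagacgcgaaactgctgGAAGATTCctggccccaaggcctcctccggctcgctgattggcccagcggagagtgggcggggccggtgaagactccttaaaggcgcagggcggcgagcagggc
Over the whole 300-base windows, 296 bases (98.7%) were identical, and 3 of the 4 that differed lay before the start.

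Hspa1a was at 217, 289 and 271 FPKM in WT on day 0 and at 24.9, 48.3 and 127 FPKM in WT on day 7. In Cthrc1-/- it was at 205, 167 and 124 FPKM on day 0 and at 68.2, 85.0 and 81.5 FPKM on day 7. The 3 WT day 0 samples were the highest of the 12, and within each genotype the days did not overlap. On day 7 the WT samples lay on both sides of the Cthrc1-/- samples, and their SD was 53.5 FPKM around a mean of 66.7, against 8.82 around 78.2 in Cthrc1-/- (n = 3 each). The mean on day 7 was 25.8% of that on day 0 in WT and 47.3% in Cthrc1-/-. The fitted log2 change between days was -2.20 (standard error 0.46) in WT and -1.25 (0.45) in Cthrc1-/-.

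Hspa1b followed Hspa1a sample by sample. On day 0 it was at 310, 425 and 395 FPKM in WT and at 288, 239 and 177 FPKM in Cthrc1-/-. By day 7 the values were 34.8, 75.8 and 187 FPKM in WT and 109, 132 and 120 FPKM in Cthrc1-/-. Its day 7 mean was 26.3% of the day 0 mean in WT and 51.4% in Cthrc1-/-. The ratio of Hspa1a to Hspa1b stayed between 0.623 and 0.715 in the 12 samples. The transcripts share sequence: 38.1% of the 150-base windows of Hspa1a occur in Hspa1b and 40.5% of those of Hspa1b in Hspa1a, so reads could have been split between them and their sum is the safer value. On day 0 that sum was 635 ± 96.7 FPKM in WT and 400 ± 96.4 FPKM in Cthrc1-/-, and by day 7 it was 166 ± 132 and 199 ± 19.9 FPKM (SD, n = 3).

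The pair depended on which WT day 7 samples were taken. Without WT day 7 replicate 1, the library rich in neutrophil markers, the log2 change of Hspa1a between days in WT was -1.73. Without replicate 3 it was -2.98. Between genotypes on day 7 the log2 change of Hspa1a was 0.21 (standard error 0.44), -0.16 without WT replicate 1 and 0.996 without WT replicate 3.

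Hspa2 (ENSMUSG00000059970, chromosome 12, 76404176 to 76406938, plus strand) encodes an HSP70 best known from male germ cells. It was at 31.5, 32.3 and 32.1 FPKM in WT on day 0 and at 6.70, 11.0 and 11.0 in WT on day 7. The Cthrc1-/- samples were at 23.7, 25.2 and 28.6 FPKM on day 0 and at 9.98, 7.90 and 10.6 on day 7. The days were far apart in both genotypes and the genotypes were apart on day 0 only, with WT higher. Its day 7 mean was 29.8% of the day 0 mean in WT and 36.7% in Cthrc1-/-, with log2 changes of -1.95 (0.16) and -1.60 (0.15). No 150-base window of Hspa2 occurs in another annotated transcript.

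Hspa8 (ENSMUSG00000015656, chromosome 9, 40800984 to 40810087, plus strand) encodes the constitutive HSP70 of the cytosol. WT samples had 337, 351 and 321 FPKM on day 0 and 231, 205 and 176 FPKM on day 7. Cthrc1-/- samples had 288, 266 and 307 FPKM on day 0 and 183, 232 and 261 FPKM on day 7. Days did not overlap in either genotype. It varied least between days of the HSP70 genes: the day 7 mean was 60.7% of the day 0 mean in WT and 78.5% in Cthrc1-/-, with log2 changes of -0.89 (0.18) and -0.50 (0.18). Of its 150-base windows, 56.0% occur in other annotated genes. The largest shares were with Gm26825 on the opposite strand (49.3%) and with the processed copy Gm15459 (48.7%). Gm15459 was at 15.7% of the mean level of Hspa8 and ran from 12.8 to 77.8 FPKM. How reads were split between these genes was not tested, so the counts of Hspa8 are uncertain to an unknown degree.

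Hsph1 (ENSMUSG00000029657, chromosome 5, 149614287 to 149636376, minus strand) encodes the cytosolic HSP110, a nucleotide exchange factor of HSP70. It was the lowest of the 10, at 8.33, 8.44 and 8.25 FPKM in WT on day 0 and 6.06, 7.89 and 8.40 in WT on day 7. In Cthrc1-/- it was at 7.20, 6.78 and 9.95 FPKM on day 0 and 6.00, 5.16 and 5.99 on day 7. Days overlapped in WT, where the log2 change was -0.36 (0.13), and did not in Cthrc1-/-, where it was -0.63 (0.13). A stretch of Hsph1 is given because it was the only 1 of the 8 genes with a promoter window to hold 3 adjoining heat shock units, GAANNTTC followed by NNGAA, or its reverse complement. The match, in capitals, lies after the start at chr5:149636279-149636308 on the minus strand.
Hsph1: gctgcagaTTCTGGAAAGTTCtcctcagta

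Dnajb1 (ENSMUSG00000005483, chromosome 8, 83608193 to 83612653, plus strand) encodes the main stress-inducible J-domain partner of HSP70. It was at 56.6, 62.5 and 62.7 FPKM in WT on day 0 and at 24.5, 24.8 and 34.6 in WT on day 7. Among the Cthrc1-/- samples it was at 61.4, 50.6 and 32.9 FPKM on day 0 and at 29.5, 34.1 and 27.7 on day 7. WT samples separated by day, and the Cthrc1-/- samples did not, because day 0 replicate 3 was below day 7 replicate 2. The log2 change between days was -1.31 (0.24) in WT and -0.84 (0.23) in Cthrc1-/-, and -1.09 in Cthrc1-/- without day 0 replicate 3.

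Bag3 (ENSMUSG00000030847, chromosome 7, 128523616 to 128546981, plus strand) encodes a co-chaperone that links HSP70 to small heat shock proteins and to autophagy. On day 0 its values were 34.1, 33.0 and 35.0 FPKM in WT and 41.9, 40.8 and 25.5 FPKM in Cthrc1-/-. On day 7 they were 27.8, 23.8 and 26.1 FPKM in WT and 25.7, 27.8 and 24.2 FPKM in Cthrc1-/-. The day 7 samples of both genotypes were alike, and Cthrc1-/- day 0 replicate 3 lay among them. Log2 changes between days were -0.57 (0.21) in WT and -0.65 (0.21) in Cthrc1-/-, and -0.88 in Cthrc1-/- without day 0 replicate 3.

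Hspb1 (ENSMUSG00000004951, chromosome 5, 135887919 to 135889563, plus strand) encodes the small heat shock protein known as HSP25 in mice. It had the highest mean of the 10 genes over the 12 samples, although on day 7 in WT its mean of 196 FPKM was below the 204 of Hspa8. It was at 481, 569 and 593 FPKM in WT on day 0 and 459, 719 and 709 in Cthrc1-/- on day 0. On day 7 it was at 108, 225 and 254 FPKM in WT and at 228, 216 and 244 in Cthrc1-/-. Days were apart in both genotypes and the genotypes overlapped on both days. The day 7 mean was 35.8% of the day 0 mean in WT and 36.4% in Cthrc1-/-, with log2 changes of -1.70 (0.25) and -1.61 (0.25). The lowest of the 12 samples was WT day 7 replicate 1, which also had the lowest basal keratinocyte sum, and without it the WT log2 change was -1.35. The promoter is shown because it holds 2 matches to the pair of units, 117 and 97 bases before the start, in capitals in this stretch of chr5:135887789-135887848, plus strand.
Hspb1: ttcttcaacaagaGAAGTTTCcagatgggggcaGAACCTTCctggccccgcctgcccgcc
A processed copy, Hsp25-ps1, shares 36.6% of the windows of Hspb1 and was at 1.11% of its mean level.

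Hspb8 (ENSMUSG00000041548, chromosome 5, 116408491 to 116422864, minus strand) encodes the small heat shock protein that binds BAG3. It was at 132, 145 and 147 FPKM in WT on day 0 and at 42.6, 57.4 and 62.1 in WT on day 7. Cthrc1-/- samples had 84.2, 106 and 112 FPKM on day 0 and 57.2, 39.9 and 60.7 on day 7. Days were apart in both genotypes, and on day 0 each Cthrc1-/- sample was below each WT sample. Log2 changes between days were -1.58 (0.17) in WT and -1.09 (0.16) in Cthrc1-/-.

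Hsp90aa1 (ENSMUSG00000021270, chromosome 12, 110690605 to 110702728, minus strand) encodes the inducible cytosolic HSP90. It was at 91.3, 101 and 95.8 FPKM in WT on day 0 and at 54.6, 51.8 and 58.4 in WT on day 7. Values in Cthrc1-/- were 80.8, 68.2 and 73.5 FPKM on day 0 and 46.6, 44.5 and 41.5 on day 7. The 4 groups did not overlap: WT day 0 was the highest, then Cthrc1-/- day 0, WT day 7 and Cthrc1-/- day 7. None of the other 9 genes had its 4 groups apart in this way. Between genotypes the log2 change was -0.48 (0.12) on day 0 and -0.39 (0.12) on day 7. Of its 150-base windows, 36.2% occur in other annotated genes, and the largest share was with Gm12346, at 9.71% of its mean level.

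Between day 0 and day 7 in WT, 9 of the 10 genes had each day 7 sample below each day 0 sample, the exception being Hsph1. Such a fall in all samples was seen in 14.1% of the 14313 genes tested. At an adjusted p under 0.05 in edgeR's quasi-likelihood test, 8 of 10 were called lower, and 7.1% of all genes were called lower. The 10 were chosen on these same samples, so counts of calls among them are a description and no test. The median log2 change of the 10 was -1.45, and that of all genes tested 0.00. The call count was 5 or 6 without WT day 0 replicate 2 or 3 respectively. It was 6 without WT day 7 replicate 2 and 10 without Cthrc1-/- day 0 replicate 3. In the same order, calls over all 14313 genes in either direction were 527, 570, 947 and 3005, against 1880 with all 12 samples.

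In Cthrc1-/- between days, 8 of the 10 were lower in each day 7 sample, with Dnajb1 and Bag3 overlapping, against 4.99% of all genes. The genes called lower were 5 of 10, against 0.601% of all genes, and the median log2 change was -0.995 against -0.01 for all genes. This count was 1 without Cthrc1-/- day 0 replicate 2 or day 7 replicate 1 or 2, 3 without day 7 replicate 3, 7 without day 0 replicate 3 and 8 with DESeq2. When only these 2 groups were fitted it was 2. Calls over all 14313 genes in either direction were 209 with all 12 samples in edgeR. They were 5 in each fit that gave 1 member, 79 without day 7 replicate 3 and 522 without day 0 replicate 3. DESeq2 called 1409, and the fit of these 2 groups 89.

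**Figure D2:**
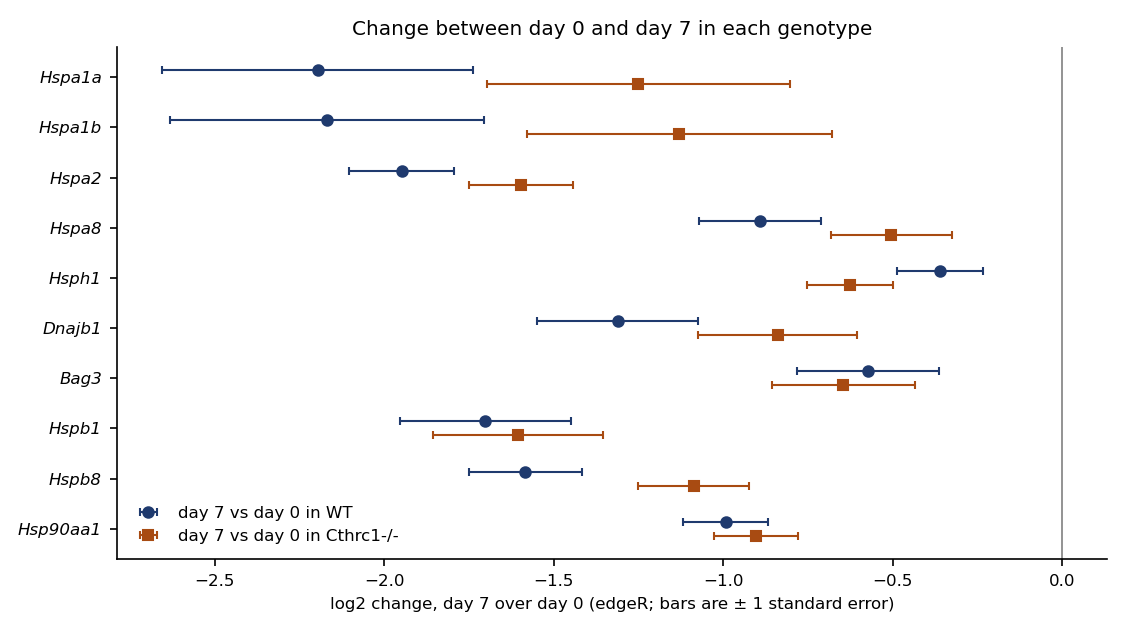
Fitted log2 change from day 0 to day 7 (horizontal axis) of each gene, with WT as circles and Cthrc1-/- as squares; bars are ± 1 standard error from the edgeR fit of all 12 samples. All 20 values lie below 0, from -0.36 for Hsph1 to -2.20 for Hspa1a, both in WT.

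Between genotypes on day 0, 6 of the 10 were lower in each Cthrc1-/- sample than in each WT sample: Hspa1a, Hspa1b, Hspa2, Hspa8, Hspb8 and Hsp90aa1. Of all genes tested, 19.8% were lower in this sense. The log2 changes were -0.74 (0.44) for Hspa1a, -0.78 (0.45) for Hspa1b, -0.42 (0.15) for Hspa2, -0.34 (0.18) for Hspa8 and -0.60 (0.16) for Hspb8. The other 4 genes overlapped, with log2 changes from -0.42 for Dnajb1 to 0.08 for Hspb1. Of the 10, 1 was called lower, against 2.26% of all genes. Under 18 of the 23 alternatives no member was called in this comparison, among them the fits without any 1 of the 3 WT day 0 samples. Those 3 fits called 48, 18 and 18 of all 14313 genes, against 827 with all 12 samples. The median log2 change was -0.42, against -0.05 for all genes.

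On day 7, 2 of the 10 were lower in each Cthrc1-/- sample, Hsph1 with a log2 change of -0.45 (0.13) and Hsp90aa1, against 2.67% of all genes. None of the 10 was called by edgeR or DESeq2, and 2 had an unadjusted p under 0.05 in edgeR (5.46% of all genes had). In either direction edgeR called 0.021% of all genes, and DESeq2 called 62 of the 14313. The median log2 change was -0.01. The difference between genotypes in the change between days was largest for the Hspa1 pair, at 0.95 (0.62) for Hspa1a and 1.04 (0.63) for Hspa1b, positive because the WT decrease was steeper. Over 22 alternatives it ran from 0.53 to 1.73 for Hspa1a and from 0.61 to 1.81 for Hspa1b, lowest without WT day 7 replicate 1 and highest without replicate 3. None of the 10 was called for this interaction by edgeR or DESeq2, and none had an unadjusted p under 0.05 in edgeR (15.1% of all genes had). Over all genes edgeR called 0.014% for it, and DESeq2 called 681 of the 14313. The WT day 0 and the other groups enter several of these comparisons, so the comparisons share samples.

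**Figure D3:**
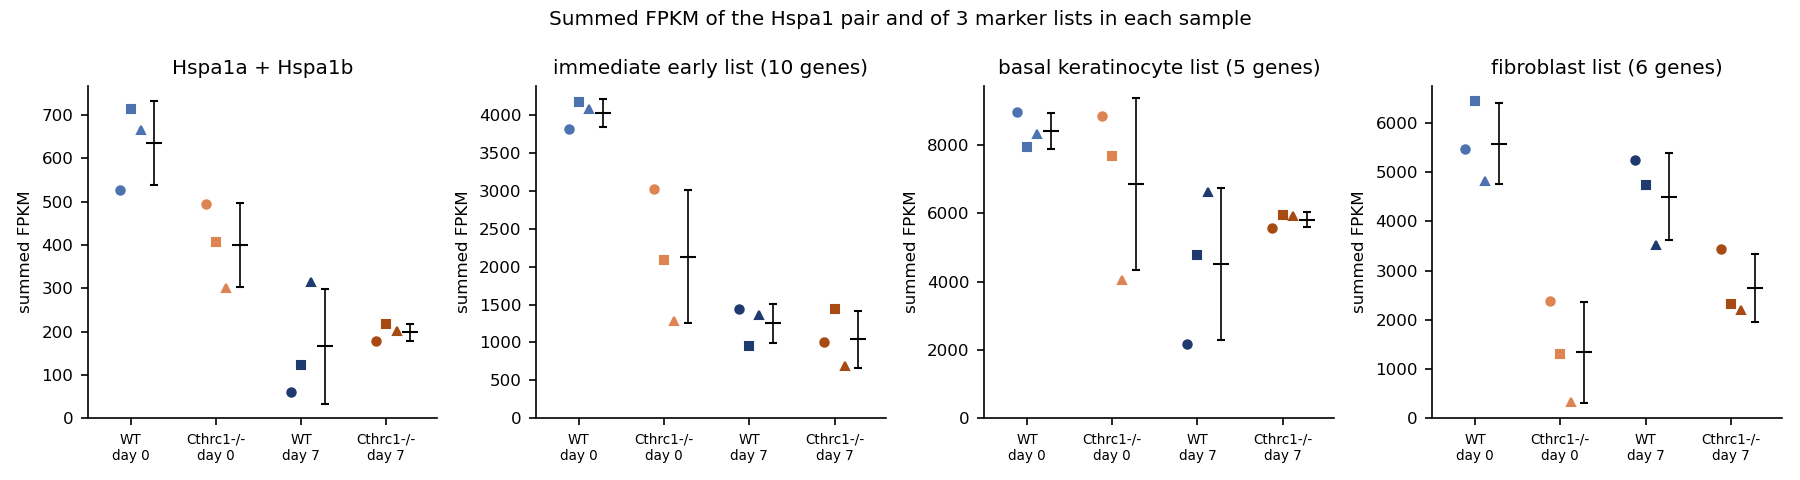
Summed FPKM (vertical axes, from 0) of Hspa1a and Hspa1b and of the immediate early, basal keratinocyte and fibroblast lists in each sample; symbols and bars as in the plot of the 10 genes. The immediate early sums of WT day 0 lie between 3820 and 4174 FPKM, above all other samples, as do those of the Hspa1 pair.

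Immediate early genes, transcription factor genes such as Fos, Jun and Egr1 that are switched on within minutes of a stimulus, were also lower on day 7 in WT. On day 0 the 10 listed summed to between 3820 and 4174 FPKM in WT and between 1282 and 3025 in Cthrc1-/-. On day 7 these ranges were 958 to 1436 and 686 to 1440 FPKM. In WT all 10 were lower in each day 7 sample (14.1% of all genes were) and 8 were called lower by edgeR (7.1%). In Cthrc1-/- 4 were lower in each day 7 sample (4.99% of all genes) and 3 were called (0.601%). On day 0, 9 of 10 were lower in each Cthrc1-/- sample (19.8% of all genes) and none was called (2.26%). The basal keratinocyte sum, from 5 markers, was between 7936 and 8985 FPKM in WT and between 4042 and 8853 in Cthrc1-/- on day 0, and between 2190 and 6617 and between 5569 and 5955 on day 7. WT day 7 replicate 1, with the lowest keratinocyte sum of its group, was the lowest of the group for 7 of the 10 genes, and replicate 3, with the highest sum, was the highest for 8 of the 10. WT day 0 replicate 1, with the highest keratinocyte sum of its group, was the lowest for 7 genes and the highest for none. Cthrc1-/- day 0 replicate 3, with the lowest sum of its group, was the lowest for 4 and the highest for 4. The 5 suprabasal markers, of differentiating keratinocytes, summed to between 2139 and 2513 FPKM in WT and between 522 and 1712 in Cthrc1-/- on day 0. On day 7 they summed to between 243 and 3766 FPKM in WT and between 1522 and 2762 in Cthrc1-/-. Within WT day 7 the immediate early sum was highest, 1436 FPKM, in replicate 1. The part of these lists in the levels of the heat shock genes was not tested.

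The genes with a pattern most like that of the Hspa1 pair were found by the root mean square difference of centred log2(FPKM + 1) over the 12 samples, among 7813 genes with a mean of at least 5 FPKM. The nearest 8 outside the members were Bmp2, a bone morphogenetic protein, at 0.28, the processed pseudogene Gm11517 at 0.34, the annexin Anxa8 at 0.35, the antiproliferative gene Tob1 at 0.36, Cnksr1 at 0.37, the Notch target Hes1 at 0.37, the Wnt antagonist Dkk2 at 0.38 and the kinesin Kif21a at 0.38. Anxa8, for instance, had means of 860 ± 30.7 FPKM in WT and 374 ± 139 in Cthrc1-/- on day 0, and of 210 ± 103 and 231 ± 40.3 FPKM on day 7 (SD, n = 3 each). None of the 8 encodes a chaperone. The nearest other member was Hspa2, at 0.51 and rank 58, followed by Hspb1 at rank 60, Hspb8 at rank 109 and Dnajb1 at rank 110. Hsp90aa1, Hspa8, Bag3 and Hsph1 stood at ranks 365, 743, 868 and 1218.

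Beyond these genes, 87 other chaperones and co-chaperones in 10 lists were examined, of which 84 had a mean of at least 1 FPKM and were tested with edgeR over all 14313 genes. In WT between days, 2 of the 84 rose and 9 fell, against 6.04% and 7.1% of all genes, with 26 at an unadjusted p under 0.05 (32.5% of all genes) and a median log2 change of 0.09. The split depended on scaling: with total counts in place of TMM, which moved the median of all genes by 0.20, 6 rose and 2 fell. The 11 calls became 2 or 3 without any 1 WT day 0 sample, 5 to 7 without WT day 7 replicate 1 or 2, Cthrc1-/- day 0 replicate 2 or any 1 Cthrc1-/- day 7 sample, and 18 without Cthrc1-/- day 0 replicate 3. With total counts 2212 of all 14313 genes were called, 1669 of them higher, against 1880 with TMM. Calls over all genes were 527 to 688 without 1 WT day 0 sample and 3005 without Cthrc1-/- day 0 replicate 3. They were 947 to 1649 in the fits that gave 5 to 7. The larger changes were those of the endoplasmic reticulum J-domain gene Dnajb9 and of Dnaja4. Dnajb9 fell from 38.7, 44.7 and 45.4 to 13.4, 10.3 and 11.2 FPKM (log2 change -2.06 ± 0.35 standard error, adjusted p = 0.0078 in edgeR). Dnaja4, a cytosolic J-domain gene, fell from 16.2, 14.2 and 14.9 to 4.91, 6.37 and 8.65 FPKM (log2 change -1.39 ± 0.27, adjusted p = 0.0132). Both passed under each of the 23 alternatives tried.

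Dnaja1, another cytosolic J-domain partner of HSP70, fell from 24.0 ± 1.3 to 17.8 ± 3.00 FPKM (SD, n = 3; log2 change -0.63, edgeR adjusted p = 0.0119). Dnaja2, a more abundant gene of the same family, was at 42.0 ± 1.69 and 46.2 ± 8.22 FPKM (log2 change -0.06, edgeR adjusted p = 0.740). The Dnaja1 call missed the threshold in 5 of 23 alternatives: total-count scaling (0.0658), limma with either pseudocount (0.0609 and 0.0608) and without WT day 0 replicate 2 (0.0513) or 3 (0.0502). Smaller falls on the log2 scale were those of Dnajc21 (-0.54, edgeR adjusted p = 0.0433), the constitutive HSP90 gene Hsp90ab1 (-0.42, 0.0469) and the chaperonin subunit gene Cct4 (-0.37, 0.0470). These 3 passed in at most 5 of 23 alternatives, and the FPKM of Hsp90ab1 overlapped between days, at 619, 626 and 609 on day 0 and 441, 514 and 633 on day 7. Hspa4l, an HSP110 gene (-0.88, edgeR adjusted p = 0.0323), and Bag4, an exchange factor gene (-0.57, 0.0419), also fell, named after their values were seen since their means were under 5 FPKM. They passed in 12 and 7 of 22 alternatives. Pdia4, a disulphide isomerase of the endoplasmic reticulum, rose from 29.7 ± 2.53 to 73.9 ± 24.6 FPKM (log2 change 1.16, edgeR adjusted p = 0.0206). Its highest value, 101 FPKM, was in WT day 7 replicate 1. The call was lost when only the groups compared were fitted (0.0574) and without WT day 0 replicate 1, 2 or 3 (0.0621, 0.0716 and 0.0794).

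Of the 17 endoplasmic reticulum genes, 11 were higher in each WT day 7 sample, 1 rose (Pdia4) and 1 fell (Dnajb9), with a median log2 change of 0.35. Of the 8 chaperonin genes, 7 were higher in each sample and 1 fell (Cct4), with a median of 0.25. Of all genes tested, 29.8% were higher in each sample. The 14 other cytosolic J-domain genes had 3 falls and a median of -0.07, the 12 HSP90 co-chaperones no call and a median of 0.00, and the 9 mitochondrial chaperones no call and a median of 0.10. Of 8 other small heat shock protein genes, 5 were tested and none was called in any comparison by edgeR, while 3 of the 5 had an unadjusted p under 0.05 on day 0 between genotypes.

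**Figure D4:**
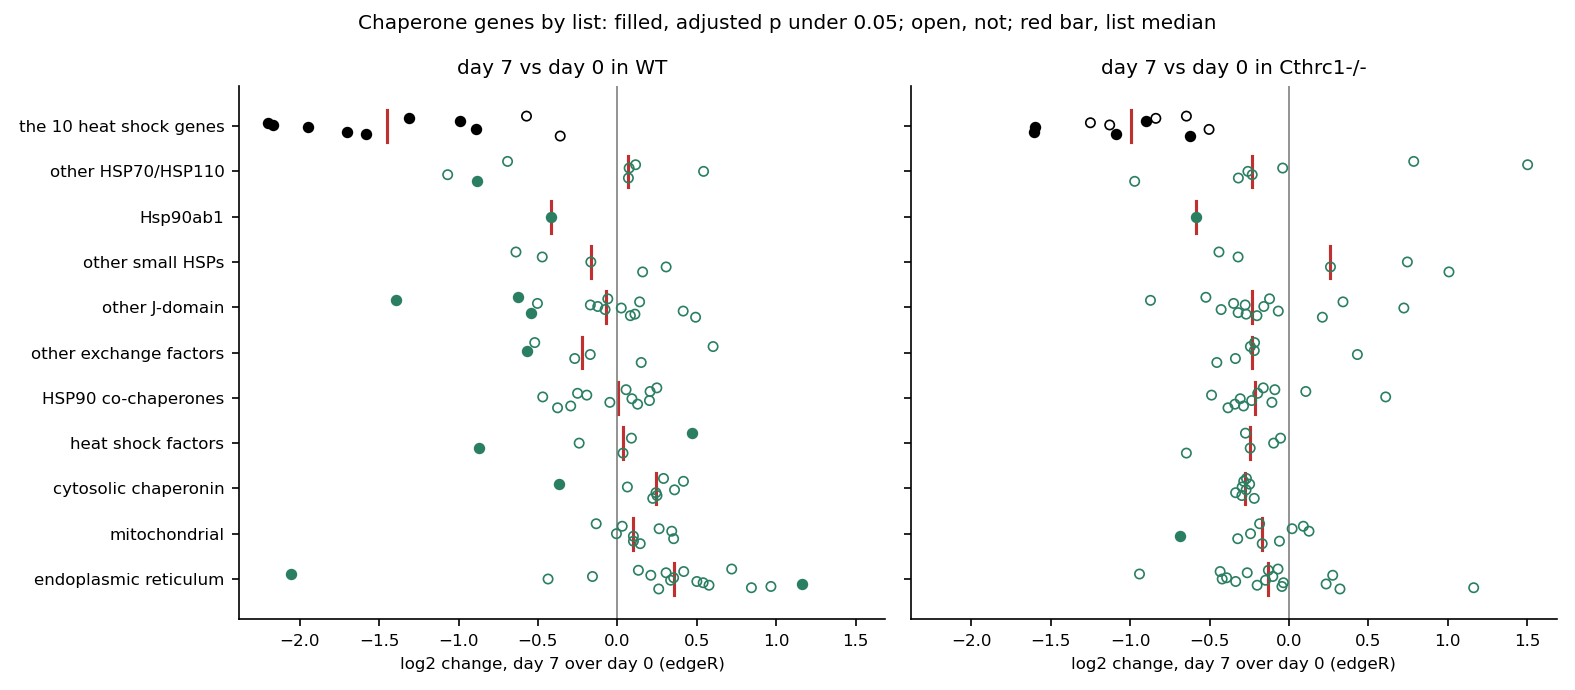
Log2 change from day 0 to day 7 (horizontal axes, edgeR) of the 10 genes (black) and of 84 other chaperones by list (green) in WT and in Cthrc1-/-. Filled points have an adjusted p under 0.05 and red bars are list medians; the 10 genes have medians of -1.45 and -0.995, and the endoplasmic reticulum list 0.35 and -0.13.

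Among the heat shock factors and their regulators, Hsf1, which encodes the main activator of this response, was at 3.49 ± 0.78 FPKM in WT on day 0 and 3.38 ± 0.60 on day 7 (log2 change -0.24, edgeR adjusted p = 0.455). Its Cthrc1-/- means were 3.73 ± 0.86 and 3.87 ± 0.61 FPKM (SD, n = 3). Transcript levels do not show the activity of this protein, which is set largely after translation. The called members of this list, named after their values were seen because they were below 5 FPKM, were Hsf2, which fell in WT from 3.50 ± 0.12 to 2.21 ± 0.67 FPKM (edgeR adjusted p = 0.0336), and Hikeshi, an import factor of HSP70, which rose from 2.45 ± 0.29 to 3.87 ± 0.16 (edgeR adjusted p = 0.0462). They passed in 10 and 9 of 22 alternatives.

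In Cthrc1-/- between days, none of the 84 rose and 2 fell, against 0.859% and 0.601% of all genes, with 23 at an unadjusted p under 0.05 (18.1% of all genes) and a median of -0.23. With total-count scaling 3 rose and none fell, and 747 of all genes were called, 649 of them higher. The count was 6 without Cthrc1-/- day 0 replicate 3, 8 without WT day 7 replicate 1 and 2 without WT day 7 replicate 3. It was at most 1 without any 1 of the other 9 samples. Over all 14313 genes these fits called 522, 911, 267 and at most 154, against 209 with all 12 samples. The mitochondrial chaperonin gene Hspd1 fell from 73.5, 76.1 and 112 to 61.6, 54.4 and 63.2 FPKM (log2 change -0.69, edgeR adjusted p = 0.0417). Hsp90ab1 fell from 723, 684 and 782 to 513, 520 and 588 FPKM (log2 change -0.59, edgeR adjusted p = 0.0475). These calls held in 8 and 7 of 23 alternatives. The fitted log2 change of Hsp90ab1 was thus below 0 in both genotypes, and smaller than that of its paralog Hsp90aa1. In WT its FPKM overlapped between days, and the call held in 5 of 23 alternatives.

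Between genotypes on day 0, 3 rose and 3 fell in Cthrc1-/- of the 84, against 3.51% and 2.26% of all genes, with 30 at an unadjusted p under 0.05 (28.4% of all genes). Hspd1 was at 55.0 ± 2.06 FPKM in WT and 87.1 ± 21.4 in Cthrc1-/- (log2 change 0.54, edgeR adjusted p = 0.0450). Higher too on the log2 scale were the chaperonin gene Cct6a (0.55, edgeR adjusted p = 0.0494) and the HSP90 co-chaperone gene Ptges3 (0.46, 0.0421), while the exchange factor gene Bag5 was lower (-0.55, 0.0368). Of these 4, Ptges3 passed in 12 of 23 alternatives and the others in 6 to 8. Named after their values were seen, the distant HSP70 relative Hspa12a (-1.68, edgeR adjusted p = 0.0144) and Fkbp5, a glucocorticoid-responsive immunophilin gene (-1.18, 0.0402), were lower, and passed in 19 and 12 of 22. When only the day 0 samples were fitted none of the 84 was called. At most 1 was without any 1 WT day 0 sample, Cthrc1-/- day 0 replicate 2 or 3, WT day 7 replicate 2 or Cthrc1-/- day 7 replicate 1, and 2 without WT day 7 replicate 3 or Cthrc1-/- day 7 replicate 2. There were 11 calls without WT day 7 replicate 1 and 14 without Cthrc1-/- day 0 replicate 1. Over all 14313 genes these fits called 1574 and 2146, against 827 with all 12 samples and 19 with only the day 0 samples.

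On day 7 edgeR called none of the 84 between genotypes, with 11 at an unadjusted p under 0.05 (5.46% of all genes), and DESeq2 called 1. Over all 14313 genes edgeR called 3 and DESeq2 62. All 17 endoplasmic reticulum genes had log2 changes below 0, from -0.96 to -0.09, and 6 were lower in each Cthrc1-/- sample, against 2.67% of all genes. Hsp90b1, the HSP90 of that compartment, was at 203, 123 and 113 FPKM in WT and at 97.9, 88.8 and 81.5 in Cthrc1-/- (log2 change -0.82, edgeR adjusted p = 0.907). The log2 changes of Pdia4 and Hikeshi were -0.72 and -0.46, also at an edgeR adjusted p of 0.907. The WT value of Hsp90b1 was highest in replicate 1, where the macrophage and neutrophil marker sums were highest too, and their part was not tested. For the interaction edgeR called none of the 84, with 19 at an unadjusted p under 0.05 (15.1% of all genes). DESeq2 called 9 of the 84 and 681 of all 14313 genes. The smallest edgeR p belonged to Hspa12a, Hspd1 and Hikeshi, with edgeR adjusted p values of 0.188, 0.193 and 0.193.

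Heat shock motifs were counted in the RefSeq promoter windows, 250 bases before to 50 after each start, on both strands. The pair of units, GAANNTTC or TTCNNGAA, each its own reverse complement, was in 6 of the 8 members with a window (Hspa1a, Hspa1b, Hspb1, Hspb8, Hsph1 and Bag3), in 22.9% of 70 other chaperones and in 17.0% of 27025 genes (15.1% of 32851 windows). These letters were not in the windows of Hspa2 or Dnajb1. The 3-unit motif contains the pair, and was in 1 of the 8 members, in 4 of the 70 others and in 0.662% of all genes (0.603% of windows). The 4 were Hspd1, Hspe1, Dnajb6 and Chordc1. Hspd1 is shown for its difference from the members: it holds 4 units in a row, in capitals, at chr1:55088053-55088082 on the minus strand, which it shares with its neighbour Hspe1 on the other strand.
Hspd1: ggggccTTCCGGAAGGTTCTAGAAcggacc
Hspe1, its co-chaperonin gene, was at 52.7 ± 1.58 FPKM in WT on day 0 and 76.5 ± 8.77 on day 7 (log2 change 0.35, edgeR adjusted p = 0.138). Hspd1 was at 67.5 ± 9.43 FPKM in WT day 7 (log2 change from day 0 of 0.10, edgeR adjusted p = 0.636). A match describes letters only, and binding was not measured.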

How the data were processed

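The submitters' processing notes name cutadapt 1.9, HISAT2 2.0.4, UMI-tools, StringTie 1.3.4d, DESeq2 and edgeR, and the build GRCm38, without their roles. The libraries were dUTP libraries from poly(A) RNA with molecular identifiers, per the labels' protocols. The deposited counts are whole numbers per gene and the FPKM values were computed by the authors before deposit. Genes with a count of 0 carry an FPKM of 0.0001, a placeholder. Whether counting used strand or collapsed identifiers is not given in the sources used here.

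The members and lists were chosen with earlier results of these data known. Counts were fitted with edgeR 4.0.16 in R 4.3.3 (TMM, quasi-likelihood, two-sided), all 12 samples in 1 fit without covariates, over the 14313 genes with a mean of at least 1 FPKM, adjusted by Benjamini-Hochberg and called under 0.05. Each standard error was taken as |log2 change|/√F. Other chaperones were named when called, up to 6 in each direction, with a mean of at least 5 FPKM, or else the 3 with the smallest p. The 8 genes nearest the Hspa1 pair and Cthrc1 were named too. FPKM ratios and fitted log2 changes differ because TMM rescales libraries, and for small changes the sign can differ. Dnajb6, for instance, was higher in each WT day 7 sample than on day 0 on FPKM, with a fitted log2 change of -0.08. In WT between days, total counts in place of TMM moved the median log2 change of all genes by 0.20. Replicate libraries differed by more than sampling noise (chi-square per degree of freedom at least 52.6). Alternatives were other scalings, DESeq2 1.42.0, limma 3.58.1 on log2(FPKM + 1) or log2(FPKM + 0.1), other filters, only the groups compared, a replicate block, counts divided by 4 and each replicate left out. Symbols for 55141 of 55401 gene IDs and positions came from GENCODE M21.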

Additional observations from a re-analysis of the deposited data

Results flagged for a closer look

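In 7 other chaperone genes the groups moved in opposite directions with no overlap between samples, on TMM-scaled counts. The directions differed between genotypes across days, or between days across genotypes. Hspa12a, a distant HSP70 relative, had a log2 change between days of -0.69 in WT and 0.79 in Cthrc1-/-. The values were 0.20 and -0.24 for Ptges3, 0.42 and -0.29 for the chaperonin gene Cct3, 0.25 and -0.30 for the chaperonin gene Cct8, and 0.47 and -0.27 for Hikeshi. Between genotypes, the log2 change on day 0 and on day 7 was 0.25 and -0.14 for the HSP110 gene Hspa4, 0.47 and -0.23 for Cct3, 0.54 and -0.24 for Hspd1, and 0.28 and -0.46 for Hikeshi. The interaction did not pass for any of the 7 in edgeR, with adjusted p values from 0.188 to 0.285. In DESeq2 it passed for 6 of them, with Hspa4 at an adjusted p of 0.0866. The 7 were picked for opposite directions in these same samples, which is what an interaction measures, so these passes are no independent test. Over all 14313 genes DESeq2 called 681 for the interaction. The separation depended on the scale. On FPKM, 3 of these 9 pairs of changes stayed apart in opposite directions: Hspa12a between days, and Cct3 and Hikeshi between genotypes. The rest overlapped in at least 1 of their 2 changes, while 7 pairs not among the 9 were apart on FPKM. Total-count scaling moved the median of all genes by 0.20 between days in WT and by 0.17 in Cthrc1-/-, against which these values are to be read. None of the 10 heat shock genes moved in opposite directions in this way. The share of all genes that did is not given here, so nothing is read from either count.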

How the results depend on the processing

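All 10 members had log2 changes below 0 between days in both genotypes under every one of 23 alternatives. Between genotypes, 13 of 230 values on day 0 and 16 of 230 on day 7 changed sign, as did 5 of 220 for the interaction. Called counts of the 84 other chaperones depended on the fit. They were 11 in WT between days, 2 in Cthrc1-/- between days, 6 between genotypes on day 0 and 0 on day 7 and for the interaction. In that order DESeq2 gave 21, 12, 25, 1 and 9. Over all 14313 genes edgeR called 1880, 209, 827, 3 and 2, and DESeq2 3551, 1409, 2787, 62 and 681. Upper-quartile scaling gave 7 in WT and 0 in Cthrc1-/- between days, with 1741 and 332 of all genes called. For WT days, Cthrc1-/- days and genotypes on day 0, limma gave 7, 1 and 3 with either pseudocount, no filter gave 4, 0 and 1, and a mean of at least 5 FPKM gave 6, 1 and 3. Over all genes limma called 1911, 775 and 601 with a pseudocount of 1, and 1998, 773 and 694 with 0.1. No filter gave 1293, 159 and 275 of 34303 genes, and the 5 FPKM filter 1267, 197 and 508 of 7813. Only the groups compared gave 0 in Cthrc1-/- between days and 0 on day 0, with 89 and 19 of all genes called. Leaving out each replicate gave 2 to 18, 0 to 8 and 0 to 14, with 527 to 3005, 5 to 911 and 18 to 2146 of all genes called. The cause of these differences was not tested.

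The replicate block gave 5 calls in WT between days, 2 in Cthrc1-/- between days, 9 between genotypes on day 0 and 0 in the other comparisons. Over all 14313 genes it gave 1467, 291 and 883 in the first 3 of these. The labels link same-numbered samples by number only. Their deviations from group means correlated at 0.0232 to 0.0869 in WT between days, where each sample correlated best with its own number. The ranges were -0.124 to 0.426, -0.0316 to 0.0540 and -0.232 to 0.139 in the other comparisons, where not every sample did. Deviations from a mean of 3 samples are tied to each other, so these values cannot settle whether samples were paired. The lowest count of a member in a sample was 1223, so the spread between 3 samples, more than counting error, limits the precision.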

Other observations

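The small heat shock protein genes Cryab, Hspb6 and Hspb7, known from muscle and chosen here after their values were seen, were lower in each Cthrc1-/- sample than in each WT sample on day 0. Hspb2, also known from muscle, overlapped, at 5.31, 6.24 and 5.67 FPKM in WT and 5.91, 3.77 and 2.14 in Cthrc1-/-. Cryab, the alpha-B-crystallin gene, was at 32.5, 29.9 and 54.8 FPKM in WT and at 22.3, 18.3 and 9.26 in Cthrc1-/- (log2 change -1.32, edgeR adjusted p = 0.117). Hspb6 was at 9.67 ± 2.59 and 4.28 ± 1.13 FPKM (SD, n = 3; log2 change -1.27, edgeR adjusted p = 0.126). Hspb7 was at 3.58 ± 0.98 and 1.3 ± 0.755 FPKM (log2 change -1.54, edgeR adjusted p = 0.121). None of the 3 passed the threshold. The 8 skeletal muscle markers summed to between 321 and 736 FPKM in WT day 0 and between 72.3 and 285 in Cthrc1-/- day 0, and the 5 smooth muscle markers to between 269 and 292 and between 81.5 and 171. On day 7, Hspb6 was at 7.11, 27.0 and 7.28 FPKM in WT, and the sample at 27.0 had the highest skeletal muscle sum of the group, 1180 FPKM against 141 and 257. Cryab was at 43.7, 26.0 and 13.2 FPKM in the same samples, highest where that sum was lowest. The part of muscle RNA in these values was not tested.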
